A study of Mus musculus with 19 samples.

Results

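Gonad and liver are both abdominal organs, and the comparison here sets fibroblasts cultured from one directly against fibroblasts cultured from the other. It used the 3 gonad and the 3 liver arrays, 6 of the 19 samples of the series, picked by their organ labels. This pair of organs was set with earlier results of these data known. The other samples came from heart, kidney, lung, skin and tail. Of these, the 12 arrays with scanner output (3 heart, 2 kidney, 2 lung, 2 skin and 3 tail) helped to estimate the spread and serve below as a range for each gene. All cells came from adult mice aged 8 to 10 weeks, whose strain, sex and genotype the labels do not give, and no sample was treated. Pieces of organ 2 to 3 mm wide were taken apart with trypsin (0.05%) or collagenase (0.5 mg/mL) for 40 min at 37 °C, and the cells that attached were grown for 5 days in medium with 10% serum. The labels name no sorting step, so each sample is RNA of all cells on a dish, and fewer cells of a type and less RNA per cell cannot be told apart. They say neither whether "gonad" is testis or ovary nor whether replicates came from separate animals, so p-values measure only the spread between these samples.

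Fibroblasts are the connective tissue cells that make collagen and other matrix, and they are known to keep a record of their position in the body, in part through Hox genes. In the gonad, stromal and steroid-producing cells descend from a ridge lining the body cavity and depend on the nuclear receptor Nr5a1. In the liver, collagen is made mainly by stellate cells, which store vitamin A, and by portal fibroblasts, and these lie beside sinusoidal endothelium and Kupffer cells, the resident macrophages.

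The Cy3 signal of each probe is given as a level, its log2 value relative to the array's 75th percentile, so that a level of 0 is that percentile. A probe near -7 is about as dim as the array reads. A difference is the gonad mean minus the liver mean of these levels with its standard error (SE), and a gene passed when limma's Benjamini-Hochberg adjusted p over all genes was under 0.05 and the difference was at least 1. Where no probe of a gene was well above background on any array of the dimmer organ, the result is a bound ("at least N-fold"), set by the dimmest signal those arrays detected or the probe's own. Between 52.9% and 64.8% of probes were well above background on 5 of the arrays. Gonad 3 had 90.8%, the scanner software marked the mean of its negative control spots as out of range, and its median raw signal was 215 against 58.0 to 71.0 on the others. Across genes, which are not independent replicates, gonad 1 and gonad 2 correlated at 0.990 and the liver arrays at 0.974 to 0.979, while gonad 3 correlated at 0.905 and 0.906 with its own organ and at 0.928 with liver 3. Each slide held 1 gonad and 1 liver array.

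Gonad and liver fibroblasts differed in 170 of 19717 genes tested (0.862%), 114 higher in gonad (0.578% of genes) and 56 higher in liver (0.284%). The genes higher in gonad included the nuclear receptor gene Nr5a1, the steroid enzymes Cyp11a1 and Akr1c14 and posterior Hox genes. In liver the complement gene C1qc led, followed by other macrophage genes, and matrix genes such as Lum and Col14a1 and anterior Hox genes were higher too. The median difference was 3.79 among the 114 and -3.08 among the 56, against 0.01 over all genes. Gonad made up 67.1% of the calls, 52.6% after normexp background correction with quantile normalization and 53.1% after quantile normalization alone. With the 5 arrays of high background removed, gonad 3 among them, the majority turned, with 358 higher in gonad and 509 in liver (41.3% gonad). It did not turn when the same 13 arrays had normexp and quantile normalization, with 337 and 190 (63.9% gonad). Without gonad 3 there were 103 genes higher in gonad and 82 higher in liver (55.7% gonad), and 140 of the 170 were among them. The calls fell to 54 without gonad 1, 84 without gonad 2, 89 without liver 1 and 75 without liver 2. Fitted on the 6 arrays alone, with no help from the other organs, 8 genes passed, among them Nr5a1, Prss35, Coch, Dner, Defb36, Hoxa10 and Prdm6.

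**Figure D1:**
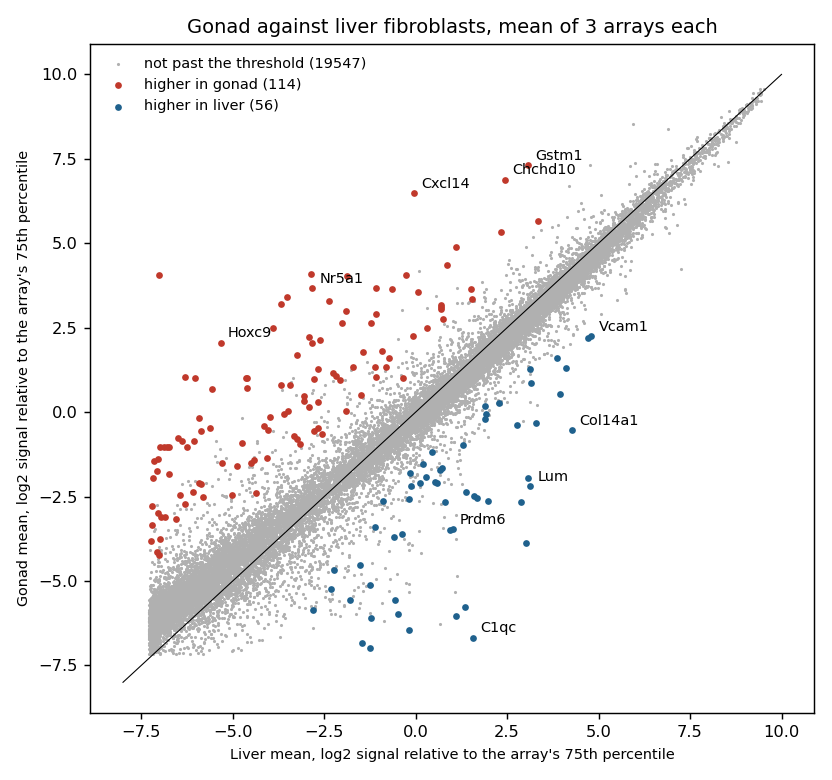
Mean level in liver (horizontal) against mean level in gonad (vertical) for each of the 19717 genes, in log2 relative to each array's 75th percentile, with 3 arrays per organ. Red points are the 114 genes higher in gonad, blue points the 56 higher in liver, and the line marks equal levels, along which most genes lie; Nr5a1 stands above it and C1qc below it.

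In all 170 genes the 3 gonad arrays and the 3 liver arrays did not overlap, as was the case with gonad above for 4.55% and with liver above for 8.55% of all genes. Of the 114 higher in gonad, 62 had all gonad arrays above all 12 arrays of the other organs, and 7 had all liver arrays below them. Of the 56 higher in liver, 7 had all liver arrays above the 12 and 8 had all gonad arrays below them. These counts are a description, because the genes were picked for the difference between the organs and the shares over all genes were not counted. Within the organs, gonad 3 was the lowest gonad array in 81 of the 114 genes and gonad 1 the highest in 87. Liver 3 was the lowest liver array by at least 1 log2 unit in 21 of the 56 genes higher in liver, liver 1 in 5 and liver 2 in 0. Of the 114, 29 were not well above background on any liver array, and 8 of the 56 on no gonad array.

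Nr5a1, the nuclear receptor that switches on the genes of steroid synthesis in gonad and adrenal, had levels of 4.15, 3.73 and 3.12 in gonad and -2.88, -2.94 and -2.64 in liver. The organs were far apart with little spread inside either, and gonad also lay above the other organs, whose arrays ranged from -2.83 to 0.43. The difference was 6.49 ± 0.52 (adjusted p = 5.3e-05, at most 0.00074 with an array left out). Nr5a1 was the 1 gene to pass among 18 measured regulators of gonadal somatic cells, whose median difference was 0.22.

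Several other regulators of that list were bright in both organs. Wt1, the zinc finger factor of the gonadal ridge and of mesothelium, read 4.5, 4.35 and 3.22 in gonad and 5.59, 3.20 and 3.33 in liver. The organs overlapped, and the difference of -0.02 had a 95% interval of -1.55 to 1.52. Gata4, a partner of Nr5a1 in gonadal development, read 3.63, 3.13 and 2.22 in gonad and 2.07, 1.49 and 2.81 in liver, a difference of 0.87 with an interval of -0.46 to 2.20. Lhx9, a LIM homeobox gene of the gonadal ridge, was 0.90, 0.62 and 0.48 in gonad and -2.30, -4.67 and -4.03 in liver. Its arrays did not overlap, but the difference of 4.33 ± 1.2 did not pass (adjusted p = 0.17). The genes named here and below that did not pass were chosen after their values were seen.

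Of 16 steroid synthesis genes, 2 passed, both higher in gonad (median difference 0.79, 0.58 without gonad 3). Cyp11a1, which makes pregnenolone from cholesterol in the opening step, read -3.14, -0.68 and -1.42 in gonad and -6.75, -7.64 and -6.83 in liver. It was detected on the 3 gonad arrays and on no liver array, and was at least 11.6-fold higher in gonad (fitted 5.32 ± 0.69, adjusted p = 0.0018). Akr1c14, a 3-alpha-hydroxysteroid dehydrogenase, read 2.38, 0.84 and 0.64 against -2.82, -3.36 and -1.79, a difference of 3.94 ± 0.51 (adjusted p = 0.0018, lost after quantile normalization, where it was 0.12). Of the steps between, Hsd3b1 (2.51 ± 0.55, adjusted p = 0.051) and Hsd17b3 (3.64 ± 0.84, adjusted p = 0.069) narrowly missed. Star, which carries cholesterol into the mitochondrion, differed by 1.87 ± 0.87 (adjusted p = 0.86). Cyp17a1, which makes androgen precursors, differed by 0.52 and the lipoprotein receptor gene Scarb1 by -0.12, and neither passed. The 15 hormone and receptor genes of the gonad gave 0 calls by limma (3 at an unadjusted p under 0.05, all higher in gonad, against 5.79% of all genes in either direction). Amhr2, the receptor for anti-Müllerian hormone, was closest, with 4.32, 2.98 and 1.80 in gonad against 1.45, -1.88 and -0.66 in liver (3.40 ± 0.79, adjusted p = 0.071). Of 13 germ cell markers none was called by limma (2 at an unadjusted p under 0.05), and their median difference was 0.83 with gonad 3 and -0.59 without it.

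A further pair of passing genes are also known from steroid tissues or testis and were chosen after their values were seen. Mrap, the accessory protein that brings the ACTH receptor to the cell surface, read 3.17, 3.32 and 2.64 in gonad and 0.81, 0.77 and 0.53 in liver. It had little spread within either organ and differed by 2.34 ± 0.30 (adjusted p = 0.0018). Sox8, a relative of the testis gene Sox9, was -0.65, -1.58 and -2.02 in gonad and -4.38, -4.48 and -4.40 in liver. Its difference of 3.00 ± 0.53 (adjusted p = 0.015) was lost without gonad 1, gonad 2, liver 1 or liver 2 (adjusted p up to 0.11), and also after normexp, after quantile normalization and in the trended robust fit.

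Promoters were searched for the core that Nr5a1 and its relatives bind, because Nr5a1 separated the organs so clearly. The letters AAGGTCA were sought on both strands of the 250 bases before each start in RefSeq's GRCm38.p6 annotation. A gene counted if any of its promoters held them. They occurred in 4.7% of the 27025 genes of that annotation, whether tested here or not. Among genes with a promoter there, they occurred in 9 of 90 higher in gonad (10%) and in 4 of 39 higher in liver (10.3%). The shares on both sides were thus nearly alike, and a match is a description of letters, not a binding site. The promoters of 2 of the 9, the chemokine gene Cxcl14 (chr13:56296552-56296801, minus strand) and the secretin gene Sct (chr7:141279134-141279383, minus strand), are shown 5′ to 3′ along the gene, with the match, here on the opposite strand, in capitals. It begins 130 bases before the start in Cxcl14 and 114 in Sct.
Cxcl14: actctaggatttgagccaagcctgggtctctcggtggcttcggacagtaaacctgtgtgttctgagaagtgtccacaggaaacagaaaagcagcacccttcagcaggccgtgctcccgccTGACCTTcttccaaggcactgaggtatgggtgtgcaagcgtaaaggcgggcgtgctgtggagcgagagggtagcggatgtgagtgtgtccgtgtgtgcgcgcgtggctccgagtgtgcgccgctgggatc
Sct: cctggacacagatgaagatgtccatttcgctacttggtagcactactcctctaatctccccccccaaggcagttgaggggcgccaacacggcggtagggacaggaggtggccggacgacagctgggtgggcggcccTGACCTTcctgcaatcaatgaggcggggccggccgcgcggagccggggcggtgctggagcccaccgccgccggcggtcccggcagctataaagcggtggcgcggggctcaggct

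The other leading genes of the gonad side were mostly secreted, membrane or metabolic genes. Cxcl14, an epithelial and stromal chemokine, read 7.14, 6.52 and 5.78 in gonad and 0.81, 0.15 and -1.11 in liver, a difference of 6.53 ± 0.65 (adjusted p = 0.00025). Sct, which encodes secretin, read 3.39, 2.24 and 1.0 against -2.27, -3.25 and -3.21 (5.12 ± 0.51, adjusted p = 0.00024). In both genes gonad 3 was the dimmest gonad array, and it still lay above every liver array. Sfrp2, a secreted binder of Wnt ligands, read 3.87, 3.34 and 3.04 in gonad and -6.89, -2.25 and -1.45 in liver, where liver 1 stood apart (6.94 ± 1.03, adjusted p = 0.005; 5.26 without liver 1). The serine protease gene Prss35, known from the ovary, read 3.42, 3.05 and 3.17 against -4.71, -2.77 and -3.55 (6.88 ± 0.63, adjusted p = 0.00016).

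Adh1, an alcohol dehydrogenase that oxidises retinol, read 2.04, 0.73 and 0.25 in gonad and -6.76, -4.49 and -6.86 in liver, where 1 of 3 arrays detected it. The difference was 7.04 ± 0.69 (adjusted p = 0.00024), and Adh1 was the 1 call among 20 retinoid handling genes. Of the enzymes that follow it, Aldh1a1 differed by 2.54 ± 0.67 (adjusted p = 0.13) and Aldh1a3 by 4.08 ± 1.0 (adjusted p = 0.094), both with gonad above liver on all arrays. Acsbg1, an acyl-CoA synthetase of steroid-producing cells and brain, read 3.83, 4.81 and 3.65 against -0.48, -3.27 and -4.81 (6.95 ± 0.83, adjusted p = 0.0012). Here the spread was on the liver side, with liver 1 brightest. Efhd1, a calcium-binding mitochondrial protein gene, was at least 79.4-fold higher in gonad (2.32, 0.82 and -0.04 against -4.95, -7.04 and -6.90, adjusted p = 0.00024).

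Aard, known from the testis as a target of sex-determining genes, differed by 6.39 ± 0.83 (adjusted p = 0.0018). The tight junction gene Cldn11, a claudin of Sertoli cells and myelin, was detected on 1 liver array and differed by 6.25 ± 0.77 (adjusted p = 0.0013). Tesc, a calcium-binding protein gene named for its expression in the testis, differed by 5.93 ± 0.79 (adjusted p = 0.0022). These genes also passed with any 1 of the 6 arrays left out (adjusted p at most 0.017). Coch, a secreted matrix protein gene of the inner ear, was at least 18.8-fold higher (-0.53, -1.04 and -1.56 against -6.72, -7.36 and -6.86, adjusted p = 0.00073). Lrtm2 was at least 18.99-fold higher (adjusted p = 0.0081), a call lost without gonad 1 (0.061).

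**Figure D2:**
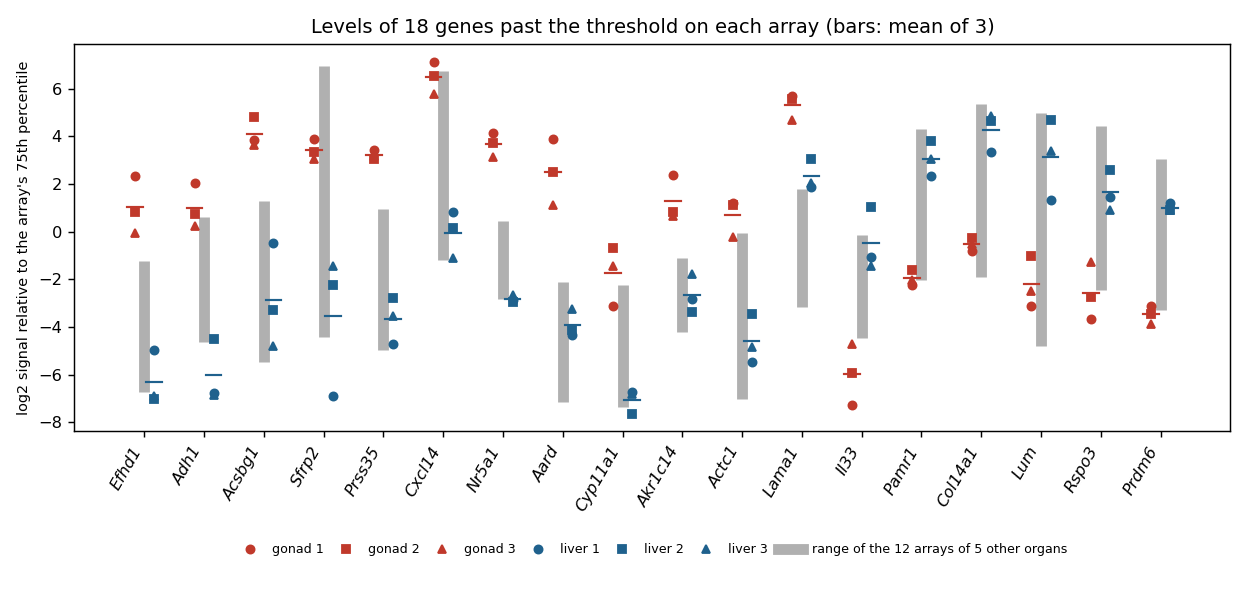
Level of 18 genes past the threshold on each array, in log2 relative to the array's 75th percentile, with gonad in red, liver in blue, a short bar at each mean of 3 and a grey bar for the range of the 12 other arrays. For Aard and Lama1 the gonad arrays lie above the whole grey range, and for Col14a1, Lum and Rspo3 the liver arrays lie inside it.

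Matrix genes moved in both directions. Of 29 collagens, 2 were higher in gonad and 1 in liver (median -0.12), and of 21 basement membrane and proteoglycan genes 1 was higher in each (median -0.57). Col4a3, a chain of the collagen IV network of kidney and testis basement membrane, was at least 19.2-fold higher in gonad (0.17, -1.37 and -1.86 against -6.96, -7.73 and -5.50, adjusted p = 0.021). Its partner Col4a4 read 1.41, 0.52 and 0.50 against -4.57, -3.83 and -2.67 (4.5 ± 0.72, adjusted p = 0.0081). Col4a3 was lost without gonad 1, gonad 2, liver 1 or liver 2 (adjusted p up to 0.13) and Col4a4 without gonad 1 (0.06). Lama1, a laminin chain of embryonic and urogenital basement membrane, read 5.71, 5.58 and 4.69 in gonad and 1.89, 3.06 and 2.05 in liver. Both organs were above all 12 other arrays, whose highest was 1.80, and gonad was above liver by 2.99 ± 0.45 (adjusted p = 0.0054).

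On the liver side, Col14a1, a collagen that coats fibrils, read -0.83, -0.25 and -0.51 in gonad and 3.34, 4.66 and 4.86 in liver (-4.81 ± 0.60, adjusted p = 0.0013). Lum, the keratan sulfate proteoglycan lumican, read -3.11, -1.0 and -2.47 against 1.32, 4.70 and 3.39 (-5.33 ± 0.87, adjusted p = 0.0088, lost without gonad 1 or liver 2 at up to 0.064). The secreted protein gene Pamr1 read -2.23, -1.61 and -2.03 against 2.33, 3.81 and 3.05 (-5.02 ± 0.57, adjusted p = 0.00073). In all 3 genes the liver arrays lay inside the range of the other organs. The gonad arrays were inside it as well for Col14a1 (-1.9 to 5.38) and Lum (-4.78 to 4.98), and in part below it for Pamr1 (-2.02 to 4.29). The related proteoglycan decorin, Dcn, was lower in gonad by a difference of -3.00 ± 0.67 that narrowly missed (adjusted p = 0.058).

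Lum was the 1 call among 19 general fibroblast markers, 18 of which had a difference below 0 (median -0.65). Col1a1 and Vim, picked from this list after their values were seen, were bright in both organs. Col1a1 read 7.16, 7.15 and 7.28 in gonad and 7.10, 7.25 and 7.32 in liver, a difference of -0.03 with an interval of -1.09 to 1.03. Vim, the intermediate filament of mesenchymal cells, differed by -0.03 (interval -1.22 to 1.16). Of the 19 markers, 18 were detected on all arrays of each organ. The hepatocyte gene Alb was not well above background on any liver array, and of 19 hepatocyte markers 0 passed by limma (3 at an unadjusted p under 0.05). Their summed linear level was 15.2, 33.1 and 23.9 on gonad 1, 2 and 3 and higher on each liver array, at 96.6, 63.6 and 39.9, with 6.08 to 70.4 on the 12 other arrays. The transferrin gene Trf made up most of this sum on each array. It read 3.63, 4.92 and 4.05 in gonad and 6.55, 5.9 and 5.17 in liver. The list as a whole did not lean to liver, with 12 of the 19 above 0 (median 0.68), though the median was -0.54 without gonad 3. Of 18 stellate cell markers 1 passed, Angptl6, higher in liver (-1.72 ± 0.34, adjusted p = 0.027), and it was lost without any array but gonad 3 (adjusted p up to 0.15). Lrat, the enzyme that stores retinol in stellate cells, was detected on 1 liver array.

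Matrix proteases and Wnt signals added calls on both sides. Mmp3, stromelysin, read -6.07, -2.51 and -3.05 in gonad and 4.41, 4.72 and -0.06 in liver, with liver 3 far below the other liver arrays (-6.90 ± 1.19, adjusted p = 0.013). It was lost without gonad 1, liver 1 or liver 2 (adjusted p up to 0.082), and the difference was -8.44 without liver 3. Mmp11, stromelysin-3, went the other way, at 5.53, 6.0 and 5.42 against 3.28, 3.41 and 3.34 (2.31 ± 0.46, adjusted p = 0.032), and its call was lost with each array left out in turn (adjusted p up to 0.16). Of 40 Wnt, BMP and Hedgehog genes, Sfrp2 was higher in gonad and Rspo3 in liver. Rspo3, the R-spondin that amplifies Wnt signals and patterns the liver lobule, read -3.65, -2.73 and -1.28 in gonad and 1.47, 2.60 and 0.93 in liver (-4.22 ± 0.64, adjusted p = 0.0057).

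Macrophage markers were a main group on the liver side. Of 20 measured macrophage markers, 6 were higher in liver, against 0.284% of all genes, and 0 in gonad. Of the 20, 19 had a difference below 0, and the median was -3.88 against 0.01 over all genes. C1qc, a chain of the first complement component, read -7.27, -7.16 and -5.63 in gonad and 3.05, 2.65 and -1.0 in liver. No gonad array detected it, and it was at least 100.3-fold higher in liver (fitted -8.25 ± 0.96, adjusted p = 0.00089). The partner chain C1qa, detected on 1 gonad array, read -7.23, -7.20 and -2.90 against 3.08, 2.22 and -1.30 (-7.11 ± 1.35, adjusted p = 0.024). Ctss, the lysosomal protease cathepsin S, was at least 71.0-fold higher in liver (adjusted p = 0.0058).

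Lyz2, the lysozyme of myeloid cells, differed by -4.43 ± 0.86 (adjusted p = 0.027), the Fc receptor chain Fcer1g by -4.08 ± 0.82 (adjusted p = 0.033) and the endotoxin co-receptor Cd14 by -2.36 ± 0.50 (adjusted p = 0.045). Vsig4, a complement receptor of Kupffer cells, read -7.38, -7.23 and -4.20 in gonad and 2.78, 1.14 and -1.89 in liver and just missed (-6.95 ± 1.52, adjusted p = 0.052). Adgre1, which encodes F4/80, differed by -4.58 ± 1.24 (adjusted p = 0.15). The scavenger receptor Cd163 was not detected on any liver array. Liver 1 was the highest liver array in 16 of the 20 markers and liver 3 the lowest in 19, while gonad 3 was the highest gonad array in 18.

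The summed linear level of the 20 markers was 5.44, 6.01 and 8.15 on gonad 1, 2 and 3 and 88.5, 58.9 and 10.7 on liver 1, 2 and 3. The 12 other arrays ranged from 5.38 to 22.5, so liver 3 lay inside the range of organs that are not the liver. The number of macrophage markers called was 10 without gonad 3 and 10 without liver 3, where the median moved to -4.79 and -5.21. It was 2 without any 1 of gonad 1, gonad 2, liver 1 or liver 2, with medians of -3.47 to -3.09, and 2 after median scaling. Each slide held 1 array of either organ, and with the slide as a block, or with the replicate block, 2 markers passed, while the 6-array fit gave 0. C1qa (adjusted p = 0.056), Lyz2 (0.051), Fcer1g (0.058) and Cd14 (0.091) were lost with the slide block. Among the 6, C1qc and Ctss passed with each array left out (adjusted p at most 0.047), whereas C1qa, Lyz2, Fcer1g and Cd14 were lost without gonad 1, gonad 2, liver 1 or liver 2 (adjusted p up to 0.24).

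**Figure D3:**
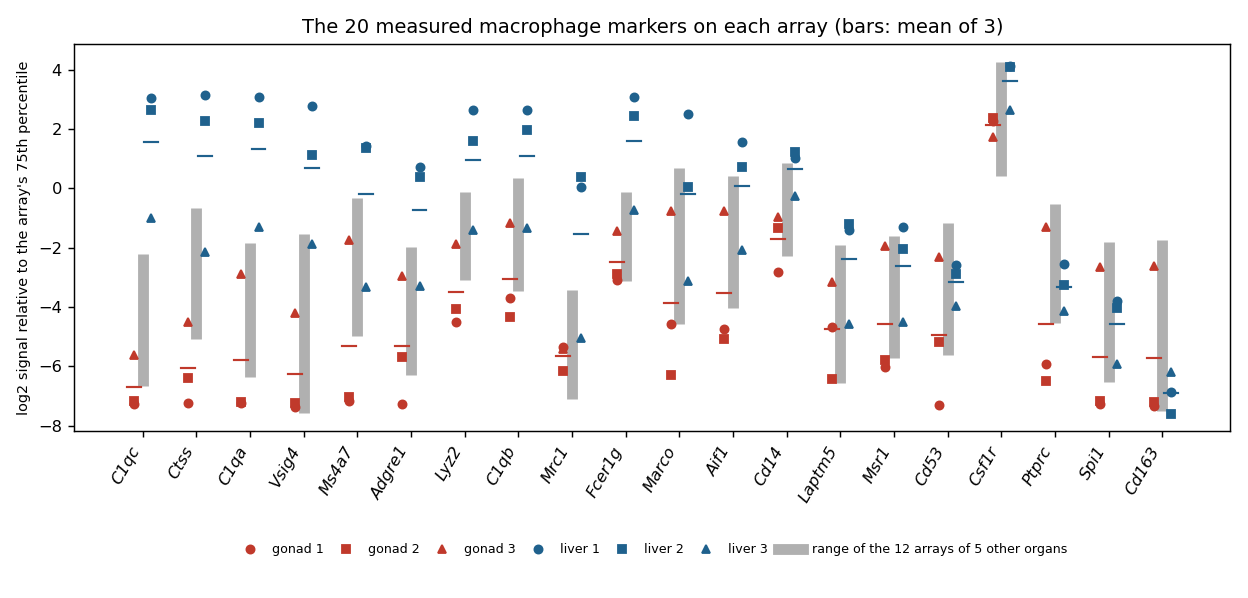
Level of each of the 20 measured macrophage markers on each array, ordered by the difference, in log2 relative to the array's 75th percentile, with gonad in red, liver in blue, short bars at means of 3 and grey bars for the range of the 12 other arrays. Liver 1 and liver 2 lie above liver 3 in nearly every marker, and gonad 3 lies above gonad 1 and gonad 2 in 18 of 20.

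Other immune genes among the leading liver genes varied over the arrays in the same manner. Bcl2a1d, a survival gene of blood cells, read 2.21, 0.80 and -3.58 in liver and was at least 29.7-fold higher there (adjusted p = 0.011). The chemokine gene Ccl4 read 0.55, -0.01 and -4.30 in liver and was at least 14.2-fold higher (adjusted p = 0.0092). The B cell and macrophage receptor gene Cd72 read 0.22, 0.72 and -2.64 in liver against -7.19, -5.96 and -3.51 in gonad, where 1 array detected it (-4.99 ± 1.01, adjusted p = 0.033). In all 3 genes liver 3 was the low array, as it was for the macrophage markers, and whether the macrophage content of the dishes set these differences was not tested. Each call was lost without gonad 1 or liver 2 (adjusted p up to 0.2), Bcl2a1d also without gonad 2, and Cd72 also without gonad 2 or liver 1. Cd72 was lost as well with the slide block (0.058), the replicate block (0.069) and median scaling, and Ccl4 after quantile normalization. Normexp with quantile normalization on the 13 arrays without high background lost Bcl2a1d (0.099) and Ccl4 (0.088). Of 16 markers of other leukocytes, 0 passed by limma (0 at an unadjusted p under 0.05). Il33, an alarm cytokine kept in the nucleus of stromal cells, was higher in liver too, at -1.05, 1.04 and -1.42 against -7.28, -5.92 and -4.73. Liver 3 was not set apart in this gene, which was at least 24.4-fold higher (fitted -5.50 ± 0.73, adjusted p = 0.0022). Saa3, a serum amyloid gene of the acute phase, read 3.30, 4.66 and 0.70 in liver and -5.90, -0.45 and -1.65 in gonad (-5.55 ± 1.16, adjusted p = 0.04, lost without gonad 1, liver 1 or liver 2 at up to 0.22). Its call was also lost with the slide block (0.076), the replicate block (0.061), median scaling and the 13 arrays without high background.

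The promoters of the liver genes were searched for the core of the myeloid factor PU.1 in the same way. The letters GAGGAAGT occurred on either strand in 2.79% of all genes of the annotation and in 2 of 90 genes higher in gonad (2.22%). They occurred in 5 of 39 genes higher in liver (12.8%), namely Bcl2a1d, C1qc, Cd72, Foxa2 and Ptgs1. The same 39 genes also held the Nr5a1 core more often than all genes did (10.3% against 4.7%). Here too a match is a description of letters, and control by PU.1 was not tested. The promoters of C1qc, Bcl2a1d and Cd72 are shown, because their genes varied together over the liver arrays, with the match in capitals as read along the gene (its complement in C1qc and Cd72). They lie at chr4:136892915-136893164 for C1qc, chr9:88731851-88732100 for Bcl2a1d and chr4:43454627-43454876 for Cd72 in GRCm38.p6, all on the minus strand. The match begins 195, 104 and 49 bases before the start in that order.
C1qc: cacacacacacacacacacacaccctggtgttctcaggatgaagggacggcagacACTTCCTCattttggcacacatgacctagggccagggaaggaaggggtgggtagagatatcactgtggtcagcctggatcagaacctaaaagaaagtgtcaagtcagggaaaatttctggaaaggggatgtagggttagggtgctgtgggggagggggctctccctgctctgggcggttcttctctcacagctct
Bcl2a1d: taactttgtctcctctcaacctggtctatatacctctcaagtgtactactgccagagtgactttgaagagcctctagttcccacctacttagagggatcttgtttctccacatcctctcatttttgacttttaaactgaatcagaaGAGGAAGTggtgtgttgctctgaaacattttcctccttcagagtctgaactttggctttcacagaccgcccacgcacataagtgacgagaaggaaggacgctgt
Cd72: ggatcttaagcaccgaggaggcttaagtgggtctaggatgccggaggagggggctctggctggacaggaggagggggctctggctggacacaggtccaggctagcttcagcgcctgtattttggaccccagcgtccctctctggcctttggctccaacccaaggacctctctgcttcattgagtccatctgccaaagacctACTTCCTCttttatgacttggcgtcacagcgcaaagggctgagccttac

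Hox genes are arranged in 4 clusters and are used in order from the head end (group 1) to the tail end (group 13). They gave 10 calls among 36 measured, 6 higher in gonad and 4 in liver, against 0.862% of all genes called in either direction. Of 12 genes of groups 1 to 4, 4 were higher in liver and 0 in gonad (median -1.34), and 5 had a difference above 0. Of 10 genes of groups 5 to 8, 3 were higher in gonad and 0 in liver (median 1.12). After normexp with quantile normalization these were 4 and 2, and 3 and 2 with the value table. Of 14 genes of groups 9 to 13, 3 were higher in gonad and 0 in liver, and all 14 had a difference above 0. In 12 of them every gonad array lay above every liver array, against 4.55% of all genes. The median of the 14 was 3.13 (2.93 without gonad 3, 1.43 after normexp with quantile normalization). Hoxa13 was the exception to the sign without gonad 3, at -1.62 in place of 0.36.

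Hoxc9 had 2.14, 2.36 and 1.66 in gonad and -5.87, -6.11 and -4.0 in liver (7.38 ± 1.07, adjusted p = 0.0044). Only 1 of 3 liver arrays detected it, and the difference was 4.22 after normexp with quantile normalization. Hoxc8 was at least 19.7-fold higher in gonad (-0.72, -0.58 and -1.28 against -6.41, -7.62 and -5.11, adjusted p = 0.013). Hoxc6 read 4.27, 4.25 and 3.69 against 0.21, -1.58 and 0.54 (4.35 ± 0.75, adjusted p = 0.013). In these Hoxc genes the gonad arrays were within 1 log2 unit of each other, and liver was low but not always dark. Hoxc13 (3.55 ± 0.55, adjusted p = 0.0063), Hoxa10 (at least 11.02-fold, adjusted p = 0.025) and Hoxd8 (3.21 ± 0.64, adjusted p = 0.03) completed the gonad side. In the Hoxc cluster all 7 genes, Hoxc4 included, and in the Hoxd cluster 7 of 8 had every gonad array above every liver array, against 4.55% of all genes.

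The anterior genes of the Hoxa and Hoxb clusters lay the other way. Hoxa3 read 1.02, 0.83 and 0.69 in gonad and 3.68, 3.04 and 2.74 in liver (-2.31 ± 0.41, adjusted p = 0.016). Hoxb2 differed by -2.02 ± 0.34 (adjusted p = 0.011), Hoxb4 by -1.83 ± 0.34 (adjusted p = 0.022) and Hoxb3 by -1.72 ± 0.35 (adjusted p = 0.032), the last with a second probe of the opposite sign. All 4 were detected on all 6 arrays. Hoxa5 (-2.02 ± 0.90) and Hoxb5 (-1.59 ± 0.78) were not called. Hoxa6 differed by 0.63 ± 1.16, and by -0.55 without gonad 3, and Hoxb6 by 0.08 ± 0.57, so neither had a settled sign. No gonad or liver array detected Hoxb1. The anterior members of the Hoxc and Hoxd clusters did not turn, with Hoxc4 at 1.25, Hoxd3 at 3.47 and Hoxd4 at 2.81, none of them called.

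Single Hox calls rested on few arrays. Hoxc9 and Hoxc13 passed with each array left out (adjusted p at most 0.043), and the other 8 were each lost without gonad 2 and without at least 1 other array (adjusted p up to 0.18 for Hoxd8). The 4 anterior calls were all lost after quantile normalization, where 1 other gene of groups 1 to 4 passed, higher in liver. Hoxd8 and Hoxa10, higher in gonad, were lost there too. After normexp with quantile normalization Hoxa10 (1.63 in place of 4.94, adjusted p = 0.15), Hoxb4 and Hoxb3 were lost. The slide block lost Hoxd8 and Hoxb3, and the replicate block lost these and Hoxb4. The anterior calls also fell to 0 without gonad 2 or liver 1. They were 1 without gonad 1 or liver 2 and 2 without gonad 3 or liver 3. The 3 calls of groups 5 to 8 fell to 0 without gonad 1 or gonad 2 and to 1 without liver 1 or liver 2, while the medians of the 3 sets kept their sign under each alternative run.

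**Figure D4:**
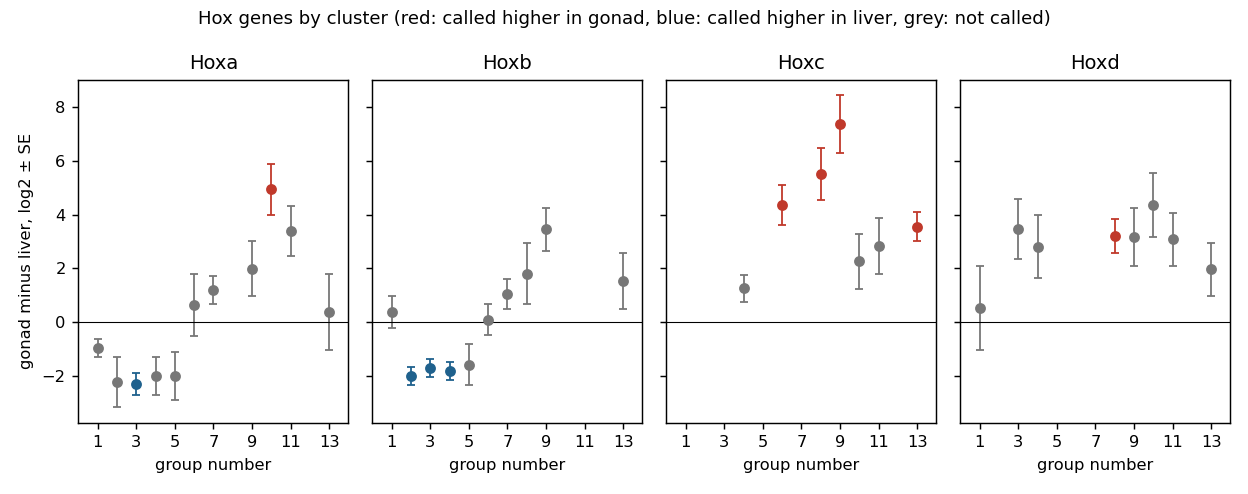
Difference between gonad and liver for each of the 36 Hox genes, in log2 with SE bars, by group number within each cluster. Red points were higher in gonad, blue points higher in liver and grey points did not pass; the blue points are anterior genes of Hoxa and Hoxb, and in Hoxc all 7 points lie above the line of no difference.

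Of 34 other transcription factors of mesenchyme, 2 were higher in each organ (median -0.35). Pax8, a kidney and genital tract factor, was at least 5.69-fold higher in gonad (-1.51, -3.67 and -3.14 against -6.88, -7.69 and -7.02, adjusted p = 0.0013, lost with normexp at 0.056). Tbx2, a T-box repressor, read 0.42, 0.57 and 0.50 in gonad and -1.80, -1.14 and -1.57 in liver (2.00 ± 0.34, adjusted p = 0.011, lost without gonad 1, gonad 2 or liver 1 at up to 0.068). Foxf1, a forkhead factor that hedgehog signals induce in the mesenchyme around the gut and in liver stellate cells, read -6.82, -6.34 and -3.56 in gonad and -2.22, -1.88 and -1.27 in liver. It was detected on 1 gonad array, and its difference was -3.78 ± 0.74 (adjusted p = 0.027, lost without any array but gonad 3 at up to 0.17). Hlx, a homeobox gene that the mesenchyme of liver and gut needs to grow, differed by -2.05 ± 0.35 (adjusted p = 0.011, lost without gonad 1 or liver 2 at up to 0.078, and after normexp or quantile normalization). Lhx8, a LIM homeobox gene of forebrain and oocytes, was detected on 1 gonad array. It differed by -4.86 ± 0.97 (adjusted p = 0.03, lost without any array but gonad 3 at up to 0.19).

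Prdm6, a repressor of smooth muscle differentiation outside the lists and chosen after its values were seen, had the smallest adjusted p on the liver side. It read -3.10, -3.44 and -3.87 in gonad and 1.21, 0.90 and 0.93 in liver. The arrays of each organ lay close together, and gonad 2 and gonad 3 were below all 12 other arrays (-3.28 to 3.04). The difference was -4.49 ± 0.34 (adjusted p = 3.9e-05, at most 0.00061 with an array left out), and it was lost after quantile normalization (0.068).

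Contractile and mesothelial genes were bright in both organs, and few of them passed. With 3 arrays per organ, few calls do not show that the organs are alike. Of 20 contractile and smooth muscle genes, 18 did not pass and 2 were higher in gonad (median 0.46). Acta2, smooth muscle actin, read 9.70, 9.69 and 9.35 in gonad and 9.45, 9.39 and 9.72 in liver, a difference of 0.06 with an interval of -1.09 to 1.21. Actg2, the enteric smooth muscle actin, read 8.54, 8.45 and 7.97 against 8.56, 8.24 and 8.88 (-0.24, interval -1.43 to 0.94). Myh11, smooth muscle myosin, read 3.69, 4.12 and 3.06 against 3.30, 2.79 and 4.39 (0.13, interval -1.09 to 1.36). The highest of the 12 other arrays was 9.63 for Acta2, 8.19 for Actg2 and 2.94 for Myh11, so both organs were at the upper end of the series. The exceptions were genes of striated muscle. Actc1, cardiac actin, read 1.22, 1.12 and -0.22 in gonad and -5.49, -3.45 and -4.85 in liver, where 1 array detected it (5.30 ± 0.59, adjusted p = 0.00068). Casq2, cardiac calsequestrin, differed by 4.66 ± 1.0 (adjusted p = 0.047), a call lost without any array but liver 3 (adjusted p up to 0.24).

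Of 16 mesothelial markers 0 passed by limma (3 at an unadjusted p under 0.05, all higher in liver). A difference below 0 was seen in 14 of them (median -0.74, lowest -2.31), and without liver 1 the median was 0.00. Msln, mesothelin, read -0.14, 2.97 and 2.65 in gonad and 4.6, 1.06 and 0.35 in liver. The arrays of each organ spread over more than 3 log2 units and overlapped, and the difference of -0.17 had an interval of -2.48 to 2.13. Upk3b, a uroplakin of mesothelium, read 2.25, 1.91 and 0.13 against 4.0, 0.89 and 2.30 (-0.97, interval -2.87 to 0.93). Gpm6a, a membrane glycoprotein gene of neurons and mesothelium, read 0.83, 0.32 and -0.70 against 1.06, 0.33 and 0.63 (-0.53, interval -1.71 to 0.66). Liver 1 was the highest liver array in 14 of the 16 markers, the same array that was highest in most macrophage markers.

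Endothelial markers were bright in both organs. Between the organs, 0 of 21 passed by limma (2 at an unadjusted p under 0.05, both higher in liver). Of the 21, 18 had a difference below 0, the lowest at -4.89, with a median of -0.58. Yet in 8 of the 21 (Cdh5, Flt1, Tie1, Emcn, Egfl7, Plvap, Robo4 and Sox18) all 6 arrays lay above all 12 arrays of the other organs, as they did in 63 of all 19717 genes (0.32%). This count is a description with no test, and no other list had more than 1 such gene. Egfl7, a secreted factor of vessels, read 4.85, 7.0 and 6.17 in gonad and 5.96, 7.90 and 6.27 in liver, against at most 4.23 elsewhere (-0.70, interval -2.19 to 0.79). Plvap, the diaphragm protein of fenestrated capillaries, read 2.24, 4.86 and 4.07 against 3.11, 5.58 and 4.15, with at most 1.23 elsewhere (-0.55, interval -2.06 to 0.95). Stab1, a scavenger receptor of liver sinusoids, read 0.84, 3.66 and 2.96 in gonad and 3.05, 5.48 and 3.70 in liver (-1.59, interval -3.60 to 0.42). Gonad 1 was the lowest gonad array in 17 of the 21 markers, and liver 2 the highest liver array in 17. The summed linear level of the 21 markers was 82.2, 274 and 148 on gonad 1, 2 and 3 and 148, 469 and 195 on liver 1, 2 and 3, against 19.4 to 78.7 on the others.

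**Figure D5:**
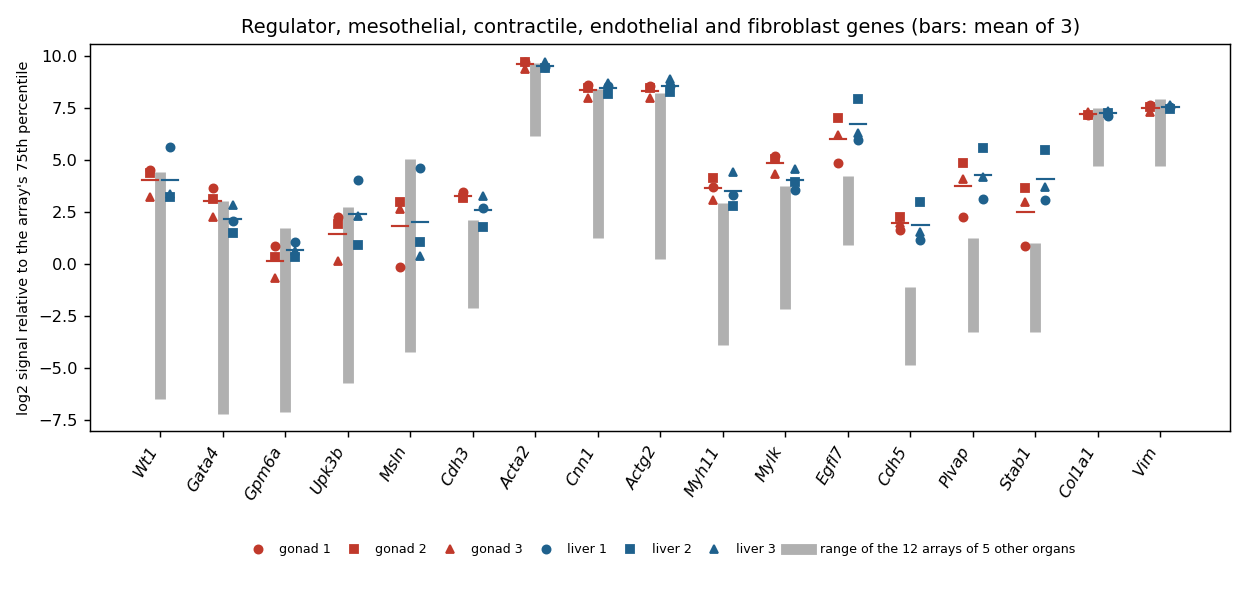
Level of 17 regulator, mesothelial, contractile, endothelial and fibroblast genes on each array, in log2 relative to the array's 75th percentile, with gonad in red, liver in blue, short bars at means of 3 and grey bars for the range of the 12 other arrays. None of the 17 passed between gonad and liver, and in Egfl7, Cdh5 and Plvap all 6 arrays lie above the grey bar.

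The remaining lists gave few calls between gonad and liver. Of 28 chemokines and cytokines, Cxcl14 was higher in gonad and Il33 in liver (median -0.75). Of 9 glial and neural markers, S100b, a calcium-binding protein of glia, was higher in gonad (3.85 ± 0.76, adjusted p = 0.03), a call lost without gonad 1, gonad 2 or liver 2 (adjusted p up to 0.19). By limma 0 passed of 12 portal fibroblast markers, 12 bile duct markers, 12 pericyte markers, 12 epithelial markers, 20 interferon-stimulated genes, 16 complement genes, 16 antigen presentation genes, 14 insulin-like growth factor genes, 19 cell cycle genes and 12 housekeeping genes. At an unadjusted p under 0.05 these held between 0 genes (cell cycle and housekeeping) and 4 genes (complement). The Y-linked genes Ddx3y and Eif2s3y were detected on all 6 arrays and differed by -0.07 and 0.26. Xist, which is transcribed from an inactive X chromosome, was detected on liver 2 alone, at -2.65.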

How the data were processed

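Cy3-labelled RNA of 19 cultured fibroblast samples was hybridised to 1-colour arrays. Per the file headers, Agilent Feature Extraction 11.0.1.1 made the deposited processed signal, an intensity of each spot with background subtracted and no normalization between arrays. The deposited value table, also an intensity, equalled the raw median of each of 62976 spots on 18 arrays. It served as an alternative, the only fit that held lung 2. The scanner flags used, of another unit (0 or 1), are deposited beside the signal.

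RefSeq accessions gave 27235 of 55681 probes 1 symbol (20660 genes). After log2 and scaling to the 75th percentile, the brightest complete probe well above background on at least 2 arrays stood for its gene. Organ means were fitted with limma 3.58.1 (R 4.3.3) over 18 arrays, with Benjamini-Hochberg adjustment. The number of arrays limits the precision. In simulated data, 18%, 20%, 54% and 76% of 50 genes shifted by 1.5, 2, 3 and 4 log2 units were called, with 0 false calls. The simulated noise was independent, with the same spread on every array. It held no high-background array and no slide effect, so these rates may not carry over to the real arrays. Intervals are at 95%.

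The organs, genes and 34 lists were chosen with earlier results of these data known. Named genes were the 15 largest calls in each direction without predicted names, the 4 largest calls of each list, Hox genes, 5 sex genes, Nr5a1 and C1qc; others are marked, not all are described, and some are not reported here. Alternatives changed background correction, scaling, filter, probe rule, arrays, blocks and thresholds.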

Additional observations from a re-analysis of the deposited data

How the results depend on the processing

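Of 170 genes past the threshold (114 higher in gonad, 56 in liver), the fit on the 6 arrays alone left 8 (7 and 1), with 1143 at an unadjusted p under 0.05. Leaving out the 5 arrays with high background gave 867 (358 and 509), of which 167 were among the 170, and with normexp and quantile normalization 527 (337 and 190). A term for background gave 351 (197 and 154), and an adjusted p under 0.01 gave 66 (54 and 12). Normexp with quantile normalization gave 253 in all, with 120 higher in liver. The filter on all 18 arrays left 65 higher in gonad and moved the median of all genes to -0.18. The slide block left 36 higher in liver, and the value table gave 87. Leaving out 1 array gave 54 to 185 in all, 45 to 103 higher in gonad and 9 to 82 higher in liver, lowest without gonad 1. The causes were not tested, apart from fewer samples or genes where the setting itself removes them. With a replicate block there were 104 genes (78 and 26); same-numbered arrays deviated together with r = 0.196, 0.0332 and 0.221, so the numbers were not taken to pair the samples.

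Of 55 named genes that passed, 23 were kept (17 higher in gonad, 6 in liver). These passed in every alternative that tested them, leaving aside the 6-array fit and the stricter thresholds. The filter on all 18 arrays tested only 19 of the 55, so it could not lose the rest. Of the 55, 0 changed sign. Of 714 list medians recomputed, 689 moved by less than 1 SD. Signal over background limits the dim probes. Genes detected on no array of the dimmer organ have bounds, while those detected on some of its arrays have fitted differences that include readings near background. After normexp with quantile normalization Foxf1 differed by -1.50 in place of -3.78, Lhx8 by -2.14 in place of -4.86, Actc1 by 2.72 in place of 5.30 and Cldn11 by 3.00 in place of 6.25.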

Other observations

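Glutathione S-transferases, enzymes that join glutathione to reactive compounds, were looked at after their values were seen. Over the whole family of 21 genes, 6 were higher in gonad, against 0.578% of all genes, and 0 in liver, and the median was 0.92. Of 7 mu class genes, 5 were higher in gonad and 0 in liver, all 7 had a difference above 0, and the median was 3.43 (3.81 without gonad 3). Gstm1 read 8.02, 7.26 and 6.65 in gonad and 2.03, 3.44 and 3.77 in liver (4.23 ± 0.64, limma adjusted p = 0.0056). Gstm3 differed by 3.78 ± 0.58 and Gstm6 by 3.43 ± 0.53 (limma adjusted p = 0.0062 for both), while Gstm5 differed by 0.03 ± 0.54. Gstm7 (adjusted p up to 0.26) and Gstm4 (up to 0.12) were lost without gonad 1, gonad 2, liver 1 or liver 2, and Gstm3 and Gstm4 when a gene's probes were averaged. Of 3 alpha class genes Gsta2 was higher in gonad (3.59 ± 0.64, limma adjusted p = 0.016), lost without gonad 1, liver 1 or liver 2 (up to 0.12). Mu class genes are near-identical copies whose probes may share signal, so which member changed is uncertain.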
